A study of Mus musculus with 10 samples.

Results

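Histone marks at genes of retinal ganglion cells were described in explanted mouse retinas cultured at low or high glucose. The genes were 10 markers of this cell type, chosen by name: Pou4f1, Pou4f2, Isl2, Rbpms, Sncg, Thy1, Nefl, Nefm, Nefh and Slc17a6. Every peak annotated to one of them was taken, at promoters and elsewhere, for both marks. That gave 28 of 108253 peaks, 7 of them at promoters and 21 elsewhere, and they belonged to 9 of the 10 genes. Nefl had no peak. In all, 25400 genes had at least 1 peak. The number of regions in the deposited table is that of the H3K18La peaks which the study merged from developing retina at 3 postnatal ages. For the explants its methods name merged H3K18La and H3K27Ac peaks, in a principal component analysis. Judged by that number alone, the regions were called neither in the explants nor for H3K27Ac. A gene or promoter without a peak may thus still carry either mark in the explants, and reads outside these regions were not seen.

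The retinas came from wild-type C57BL/6J mice at postnatal day 28, were freed of sclera and pigment epithelium, and were kept for 48 hours in medium with 5 mM or 25 mM glucose. CUT&Tag, in which an antibody brings a transposase to a modified histone, was run on 500000 dissociated cells per assay against 2 marks of histone H3. Lactylation at lysine 18 (H3K18La) had 3 libraries at either glucose concentration, and acetylation at lysine 27 (H3K27Ac) had 2. The labels name no animals and place all 10 libraries in batch 1, so the p-values given here measure the spread between libraries, which may be technical. The deposited extraction protocol names an H3K9me3 antibody and a protein A fusion to MNase in place of the H3K27Ac antibody and transposase. The sample titles and the methods of the study were followed here, and the files alone do not settle this. All groups shared the dissection and the culture.

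Retinal ganglion cells are the output neurons of the retina. Their axons form the optic nerve and carry visual signals to the brain, and dissection for an explant cuts every one of these axons. The cells are a small minority of retinal neurons, which are mostly rods, and they begin to die after axotomy. Acetylation of lysine 27 is found at active promoters and enhancers, and lactylation of lysine 18 is a mark fed by lactate, the end product of glycolysis. In such bulk tissue, fewer cells of a type and less signal per cell cannot be told apart.

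The values were RPKM, read counts scaled to the length of the peak and to a denominator of the library. These denominators ran from 1358008 to 7424470 reads, and between 46 and 738 reads per library fell in the 28 peaks. The share of reads lying in any peak was 11.8% to 12% for H3K18La at 5 mM and 31.2% to 35.0% at 25 mM. For H3K27Ac it was 21.1% and 31.5% at 5 mM and 69.5% and 56.5% at 25 mM. Signal in peaks thus differed between the glucose levels across the genome, and its part in the differences at single genes was not tested. As a check of the tissue label, 11 of 12 rod genes had a peak, and their median H3K27Ac at 25 mM was 40.3 RPKM against 2.55 RPKM over all genes with a peak.

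The peaks were unevenly spread over the genes. Rbpms held 10, Nefh 5, Isl2 3, Pou4f2 3, Thy1 2, Sncg 2, and Slc17a6, Nefm and Pou4f1 held 1 each, against a median of 2 over all genes with a peak. A promoter peak, close to a transcription start by the deposited annotation, was present at 6 of the members, and 57.3% of all genes with a peak had one. Of the 2694 reads in the 28 peaks, 2327 (86.4%) lay in Nefh and Rbpms. The 13 peaks of the other 7 genes held 367 reads over the 10 libraries, and none held more than 20 in a library.

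4 stretches of DNA are printed as examples. 2 are the distal regions with the largest H3K18La differences among the member peaks tested, and so were picked by their values. The other 2 are the start regions of ganglion cell transcription factors. There the marks were weak (Pou4f1) or not measured, since no region was counted (Pou4f2). The 2 distal windows are the central 300 bases of their peaks, read from the plus strand of GRCm38. The 2 start regions are the 250 bases before the transcription start in RefSeq (GRCm38.p6), on the minus strand that carries both genes. Capitals mark GGGCGG, the GC box bound by SP and KLF factors, and CAGCTG, an E-box, on either strand; TAATCC, the core bound by CRX and OTX2, and ATTAAT, a POU4F core, were also searched and have no match in these 4 stretches.
Rbpms intron, chr8:33833539-33833838: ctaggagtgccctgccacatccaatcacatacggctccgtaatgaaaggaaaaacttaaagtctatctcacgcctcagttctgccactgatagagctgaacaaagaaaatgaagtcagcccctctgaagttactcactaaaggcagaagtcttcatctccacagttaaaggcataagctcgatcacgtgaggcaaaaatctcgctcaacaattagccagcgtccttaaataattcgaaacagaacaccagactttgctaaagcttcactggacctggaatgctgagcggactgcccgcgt
Nefh upstream, chr11:4957102-4957401: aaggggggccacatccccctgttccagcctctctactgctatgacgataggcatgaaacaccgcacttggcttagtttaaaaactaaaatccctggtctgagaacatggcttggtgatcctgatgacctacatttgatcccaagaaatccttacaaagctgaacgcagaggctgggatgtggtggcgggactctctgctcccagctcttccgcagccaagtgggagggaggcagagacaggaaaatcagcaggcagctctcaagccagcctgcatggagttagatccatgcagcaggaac
Pou4f1 start, chr14:104468000-104468249: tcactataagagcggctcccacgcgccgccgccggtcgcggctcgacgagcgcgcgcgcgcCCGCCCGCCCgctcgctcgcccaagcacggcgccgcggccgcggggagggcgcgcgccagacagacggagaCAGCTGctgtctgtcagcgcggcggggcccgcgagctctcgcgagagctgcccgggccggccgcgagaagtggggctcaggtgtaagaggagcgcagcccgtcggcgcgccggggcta
Pou4f2 start, chr8:78436648-78436897: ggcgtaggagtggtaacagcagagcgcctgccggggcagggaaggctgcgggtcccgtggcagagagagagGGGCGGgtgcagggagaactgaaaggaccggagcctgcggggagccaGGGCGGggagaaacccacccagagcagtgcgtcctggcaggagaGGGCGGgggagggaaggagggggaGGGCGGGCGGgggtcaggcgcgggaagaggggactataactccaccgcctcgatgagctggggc
The Rbpms and Nefh windows hold none of the 4 motifs and have a GC content of 46.3% and 53.0%. The Pou4f1 stretch holds 2 GC boxes, which overlap, and 1 E-box at 78.0% GC, and the Pou4f2 stretch holds 5 GC boxes, the last 2 overlapping, at 70.8% GC.

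Over the central windows of all 28 peaks, 6 (21.4%) held GGGCGG, 7 (25.0%) CAGCTG, 3 (10.7%) TAATCC and 0 ATTAAT. Among the same windows of all 108253 peaks the shares were 11.8%, 20.5%, 11.5% and 4.99%. The share with GGGCGG depended on the kind of peak, at 44.8% of promoter windows and 5.54% of others. The pooled shares thus do not compare like with like. Of the members' 7 promoter peaks, only those of Rbpms and Nefh held GGGCGG. In promoter stretches of 250 bases in RefSeq, 32.7% held GGGCGG, 13.0% CAGCTG, 6.25% TAATCC and 4.39% ATTAAT. RefSeq stretches were on hand for 5 of the 10 genes (Slc17a6, Pou4f2, Isl2, Sncg and Pou4f1). Of these 5, each had a stretch with at least 1 GC box, and ATTAAT was met once, in the second of 2 Slc17a6 starts. Letters alone do not show that a factor binds there.

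By mean RPKM over a mark's libraries, 17 of the 28 ganglion cell peaks lay below the median of all peaks for H3K18La and 19 for H3K27Ac. The order depended on the mark and the glucose level: the median H3K18La of the 28 was 1.01 RPKM at 5 mM against 0.888 RPKM over all peaks, and 1.39 against 1.62 RPKM at 25 mM. Away from promoters the members' H3K18La medians were higher, at 1.15 against 0.880 RPKM at 5 mM and 1.73 against 1.54 RPKM at 25 mM, while for H3K27Ac they were 1.02 against 1.18 and 1.59 against 1.68 RPKM. The promoter peaks were the weaker part: at 25 mM their median H3K27Ac was 0.910 RPKM against 7.79 RPKM over all promoter peaks, and at 5 mM 0.634 against 3.10 RPKM. For H3K18La the medians were 1.03 against 1.94 RPKM at 25 mM and 0.611 against 0.919 RPKM at 5 mM. Above percentile 90 of all peaks lay 3 members for H3K18La, at Rbpms and Nefh, and 1 for H3K27Ac, at Nefh. None of these 4 cases was a promoter.

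**Figure D1:**
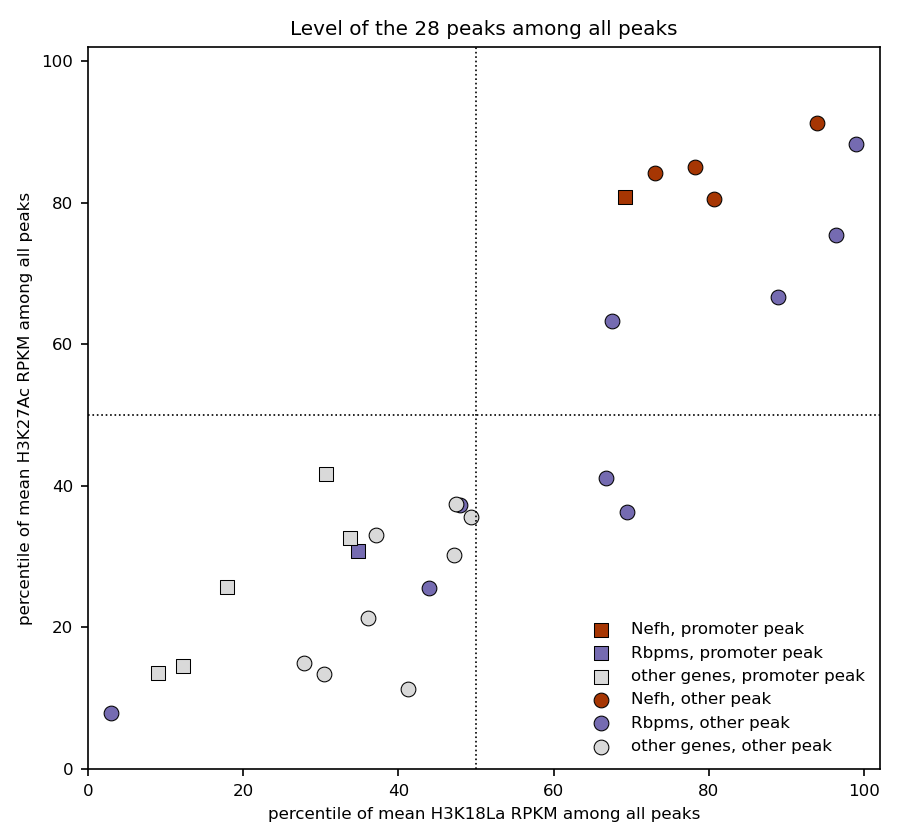
Percentile of each of the 28 peaks among all 108253 peaks by mean H3K18La RPKM (horizontal axis, 6 libraries) and mean H3K27Ac RPKM (vertical axis, 4 libraries), with squares for promoter peaks and circles for others; dotted lines mark the median. Peaks of Nefh and 4 of the 10 Rbpms peaks fill the upper right, and every promoter peak except that of Nefh lies in the lower left.

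The comparison of glucose levels asked whether the marks at these genes differed between 25 and 5 mM. Differences were taken on the log2(RPKM + 0.5) scale, 25 minus 5 mM, and tested with limma over all peaks with a mean of at least 1 RPKM, with Benjamini-Hochberg adjustment and a threshold of 0.05. This scale understates the change of weak peaks. For H3K18La, 17 of the 28 peaks reached the minimum. Of these, 4 rose and 0 fell, while 37.3% of all tested peaks rose and 0.0869% fell. For H3K27Ac 15 reached it, 5 rose and 0 fell, against 33.9% and 0.164% of all tested peaks. The members' share was thus no higher than the background for H3K18La and close to it for H3K27Ac. The H3K27Ac count depended on single libraries, as did that over all peaks. Without 25 mM replicate 1 it was 0 of 14, beside 10 of 70435 peaks in all, and without 25 mM replicate 2 it was 0 of 11, beside 980 of 71062 (1.38%). Without 5 mM replicate 1 it was 2 of 18, beside 22.0% of all peaks tested, and without 5 mM replicate 2 it was 11 of 17, beside 53.0%. The H3K18La count lay between 2 and 6 when one library was left out, at 2 without 5 mM replicate 2 or 25 mM replicate 2, where 30.5% and 24.6% of all peaks tested passed. A peak under 1 RPKM at 5 mM could be tested only through its 25 mM libraries. This was so for 2 of the 9 calls, the Thy1 peak in H3K27Ac and the Nefh promoter in H3K18La, so these counts do not stand for the members as a whole.

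Every difference has to be read against the shift of the whole genome. The median over all tested peaks was 1.10 for H3K18La and 0.84 for H3K27Ac on the log2 scale. Over the members tested it was 0.41 and 1.11, and 4 of 17 and 9 of 15 lay above the median of all. With no minimum level, the medians were 0.59 and 0.79 over all 28 member peaks, against 0.76 and 0.58 over all peaks. Of the 28, 6 and 12 lay above the median of all tested peaks. When libraries were scaled to their reads in peaks, 0 of 65614 peaks passed the limma test for H3K18La and 0 of 72442 for H3K27Ac, with 7636 and 12491 at an unadjusted p under 0.05, so that the absence of member peaks there says nothing about the members. With libraries centred on their median peak 1.59% and 1.58% of all peaks passed, and 0 of the 17 and 15 member peaks. At an unadjusted p under 0.05 stood 0 and 1 of them after the first scaling, and 1 and 3 after the second, for H3K18La and H3K27Ac. With libraries centred on the weakest 10% of peaks instead, an alternative chosen after seeing the data, 2 member peaks passed in each mark, where 15.5% and 7.55% of all peaks did. The calls therefore depend on the scaling, at the members as over the genome.

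Groups without overlap between the glucose levels gave a similar picture. For H3K18La 6 of 28 peaks had every 25 mM library above every 5 mM library and 0 had the reverse, against 36.6% and 0.821% of all peaks. For H3K27Ac the counts were 16 and 2, against 53.0% and 6.37% of all peaks. At 5 peaks both marks were higher without overlap: 3 at Nefh, 1 at Rbpms and 1 upstream of Isl2, against 28% of all peaks. The 2 peaks lower in H3K27Ac lay in introns of Rbpms, 51823 and 110532 bp after its start, and held at most 6 reads in a library.

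**Figure D2:**
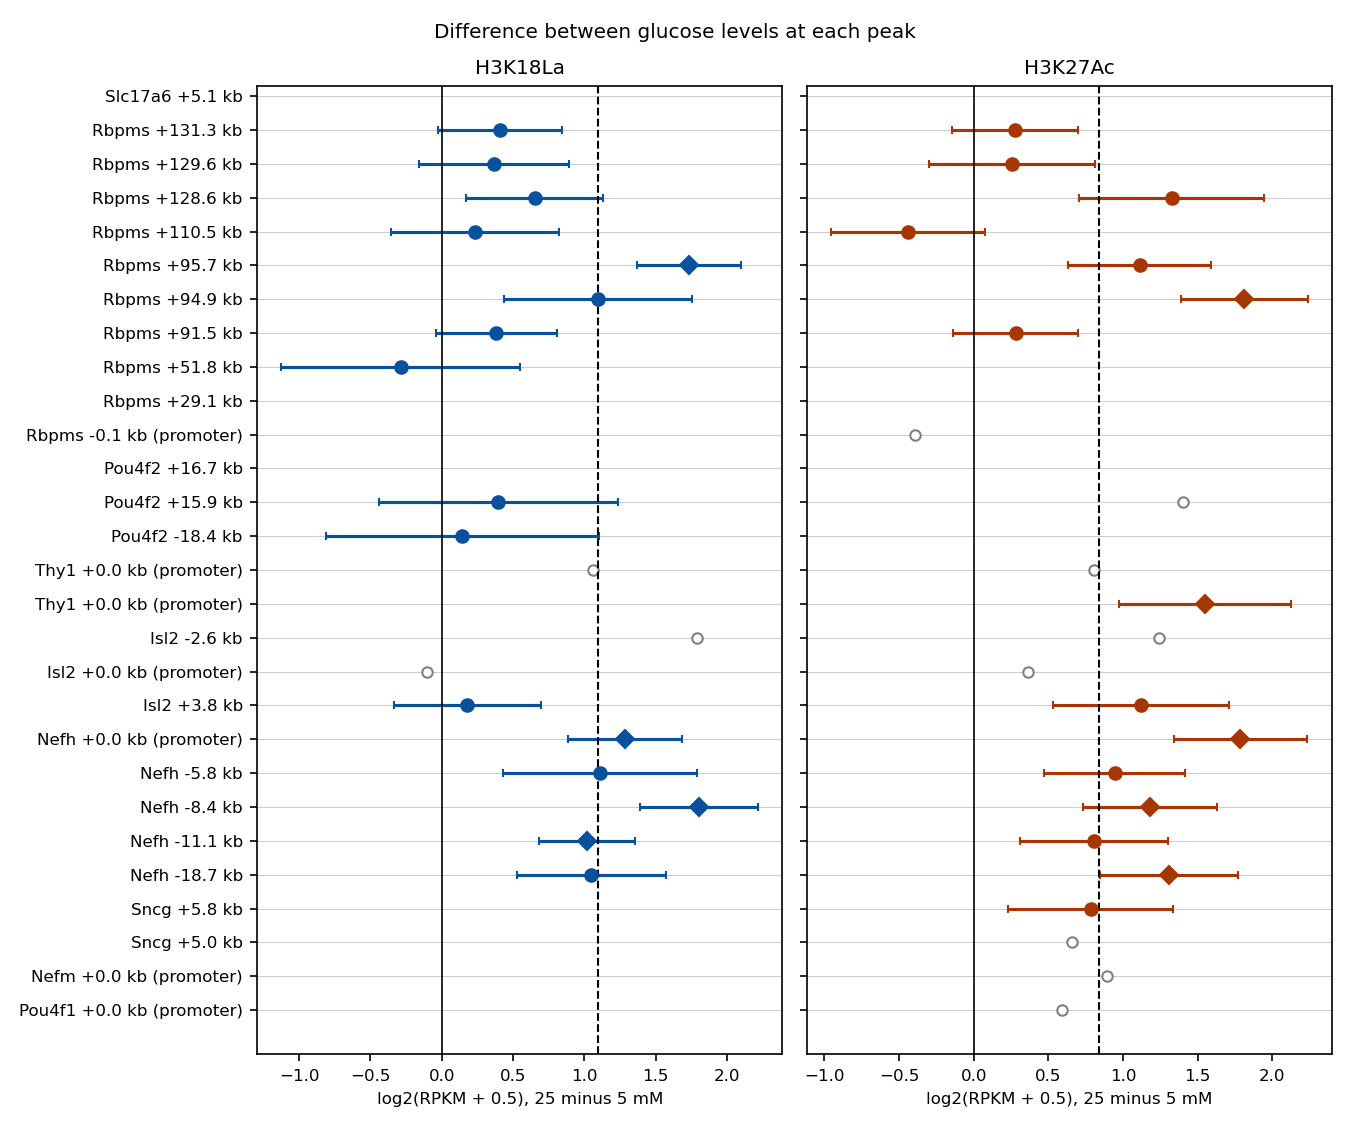
Difference in log2(RPKM + 0.5), 25 minus 5 mM, at each of the 28 peaks (rows, with distance from the transcription start in kb) for H3K18La and H3K27Ac. Filled symbols with bars of 1 SE were tested, diamonds passed the threshold, open circles were below 1 RPKM on average, peaks with at most 3 reads in every library of a mark have no symbol, and the dashed line is the median of all tested peaks (1.10 and 0.84); the diamonds belong to Nefh, Rbpms and, for H3K27Ac, Thy1.

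Among the transcription factors no peak passed the test. Pou4f1 encodes the POU factor BRN3A, which keeps many ganglion cells in their mature state. Its only peak (chr14:104467389-104468125) spans the transcription start and overlaps an exon. H3K18La there was 0, 0.524 and 0.999 RPKM at 5 mM and 0, 0.667 and 0.457 RPKM at 25 mM, from at most 2 reads in a library. H3K27Ac was 0 and 0.655 RPKM at 5 mM and 0.755 and 0.548 RPKM at 25 mM. The glucose groups overlapped in both marks, and the peak stood at percentile 12.2 of all peaks for H3K18La and 14.5 for H3K27Ac. No fold is given, since H3K18La never exceeded 3 reads.

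Pou4f2 encodes BRN3B, which directs the ganglion cell fate and axon growth. No region of the set lay at its promoter, where the explants were thus not measured, and its 3 peaks were intergenic, 16666 and 15877 bp on the downstream side of its start and 18367 bp upstream. At the strongest of them by mean level (chr8:78420268-78420768), H3K27Ac was 0 and 0.643 RPKM at 5 mM and 1.66 and 1.34 RPKM at 25 mM. H3K18La there was 0, 1.16 and 1.47 RPKM at 5 mM and 0, 2.45 and 2.02 RPKM at 25 mM. H3K27Ac was thus higher in both 25 mM libraries, on at most 6 reads, and H3K18La overlapped (log2 difference 0.40, SE 0.84, limma adjusted p = 0.71). Both groups of the H3K27Ac peak nearest to this one, at 16666 bp, held at most 3 reads a library.

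Isl2, a LIM-homeodomain factor of ganglion cells that project to the opposite side of the brain, had 3 peaks. Its promoter peak (chr9:55542054-55543633) showed overlapping groups: H3K18La was 0.300, 0.611 and 0.932 RPKM at 5 mM and 0.644, 0.467 and 0.427 RPKM at 25 mM. H3K27Ac there was 0.293 and 1.02 RPKM at 5 mM and 0.968 and 0.852 RPKM at 25 mM, again with overlap. The next peak was intergenic, 2606 bp upstream. H3K18La there was 0, 0.525 and 0 RPKM at 5 mM and 1.38, 1.51 and 2.29 RPKM at 25 mM, and H3K27Ac was 0.157 and 0.657 RPKM at 5 mM and 1.89 and 1.28 RPKM at 25 mM. Both marks were higher in every 25 mM library, but the peak averaged under 1 RPKM in each mark and was not tested. The log2 differences were 1.79 and 1.24. The remaining peak, over the 3′ end of the gene, gave 0.18 (SE 0.51, limma adjusted p = 0.79) for H3K18La and 1.12 (SE 0.59, limma adjusted p = 0.12) for H3K27Ac. For H3K27Ac its means were 0.508 RPKM at 5 mM and 1.66 RPKM at 25 mM, so it too reached the minimum only through the 25 mM libraries.

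The neurofilament genes encode the subunits of the axonal cytoskeleton, which is thick in ganglion cell axons. The heavy subunit gene Nefh (chr11:4938754-4948064, minus strand) held, with Rbpms, most of the reads of the whole list. Its promoter peak (chr11:4946617-4948582) covers the start and overlaps an exon. H3K27Ac there was 1.88 and 2.78 RPKM at 5 mM and 12.4 and 6.71 RPKM at 25 mM, and rose by 1.78 on the log2 scale (SE 0.44, limma adjusted p = 0.00169). H3K18La was 1.21, 0.883 and 0.749 RPKM at 5 mM and 3.62, 2.88 and 2.57 RPKM at 25 mM, and rose by 1.29 (SE 0.40, limma adjusted p = 0.0265). Its 5 mM mean was 0.946 RPKM, and with no minimum level limma adjusted p was 0.0323. The glucose groups did not overlap in either mark. The H3K27Ac difference exceeded the median of all peaks by 0.95 and the H3K18La difference by 0.19. The H3K18La call was lost without 5 mM replicate 2 or any of the 25 mM libraries, where limma adjusted p ran from 0.0581 to 0.0832. The H3K27Ac call depended on single libraries as well, and its difference ran from 1.37 to 2.20 when 1 library was left out.

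Upstream of Nefh lay 4 intergenic peaks, 5846, 8371, 11118 and 18717 bp from the start. The one at 8371 bp is among the sequences printed above and had the largest H3K18La difference of all tested members. H3K18La there was 0.581, 0.827 and 1.80 RPKM at 5 mM and 5.61, 4.97 and 3.72 RPKM at 25 mM, and rose by 1.80 (SE 0.42, limma adjusted p = 0.00673). H3K27Ac was 2.41 and 4.54 RPKM at 5 mM and 9.28 and 7.18 RPKM at 25 mM, and rose by 1.18 (SE 0.45, limma adjusted p = 0.0323). No library of one glucose level reached the values of the other. The H3K27Ac call depended on single libraries of both glucose levels. Its difference ran from 0.78 (without 5 mM replicate 1) to 1.58 when 1 library was left out.

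The strongest Nefh peak lay at 11118 bp (chr11:4959182-4960192), at percentile 93.9 of all peaks for H3K18La and 91.2 for H3K27Ac. H3K18La was 4.22, 2.67 and 4.37 RPKM at 5 mM and 8.55, 10.9 and 5.34 RPKM at 25 mM, and rose by 1.02 (SE 0.34, limma adjusted p = 0.0347), which is 0.08 below the median of all peaks. This call was lost without 5 mM replicate 2 or 25 mM replicate 1 or 2 (limma adjusted p of 0.0890 to 0.15). With no minimum level it was lost too (limma adjusted p = 0.0756). H3K27Ac was 8.46 and 7.64 RPKM at 5 mM and 15.0 and 13.9 RPKM at 25 mM, without overlap, but the log2 difference of 0.80 (SE 0.49) did not pass the test (limma adjusted p = 0.19). At 18717 bp H3K27Ac rose by 1.31 (SE 0.46, limma adjusted p = 0.0214), and without 5 mM replicate 1 the difference was 0.80 (limma adjusted p = 0.13). That peak is annotated to Nefh by distance only, since the start of Ap1b1, an adaptor subunit of clathrin coats, lies 19060 bp away on its other side. The peak at 5846 bp passed in neither mark.

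**Figure D3:**
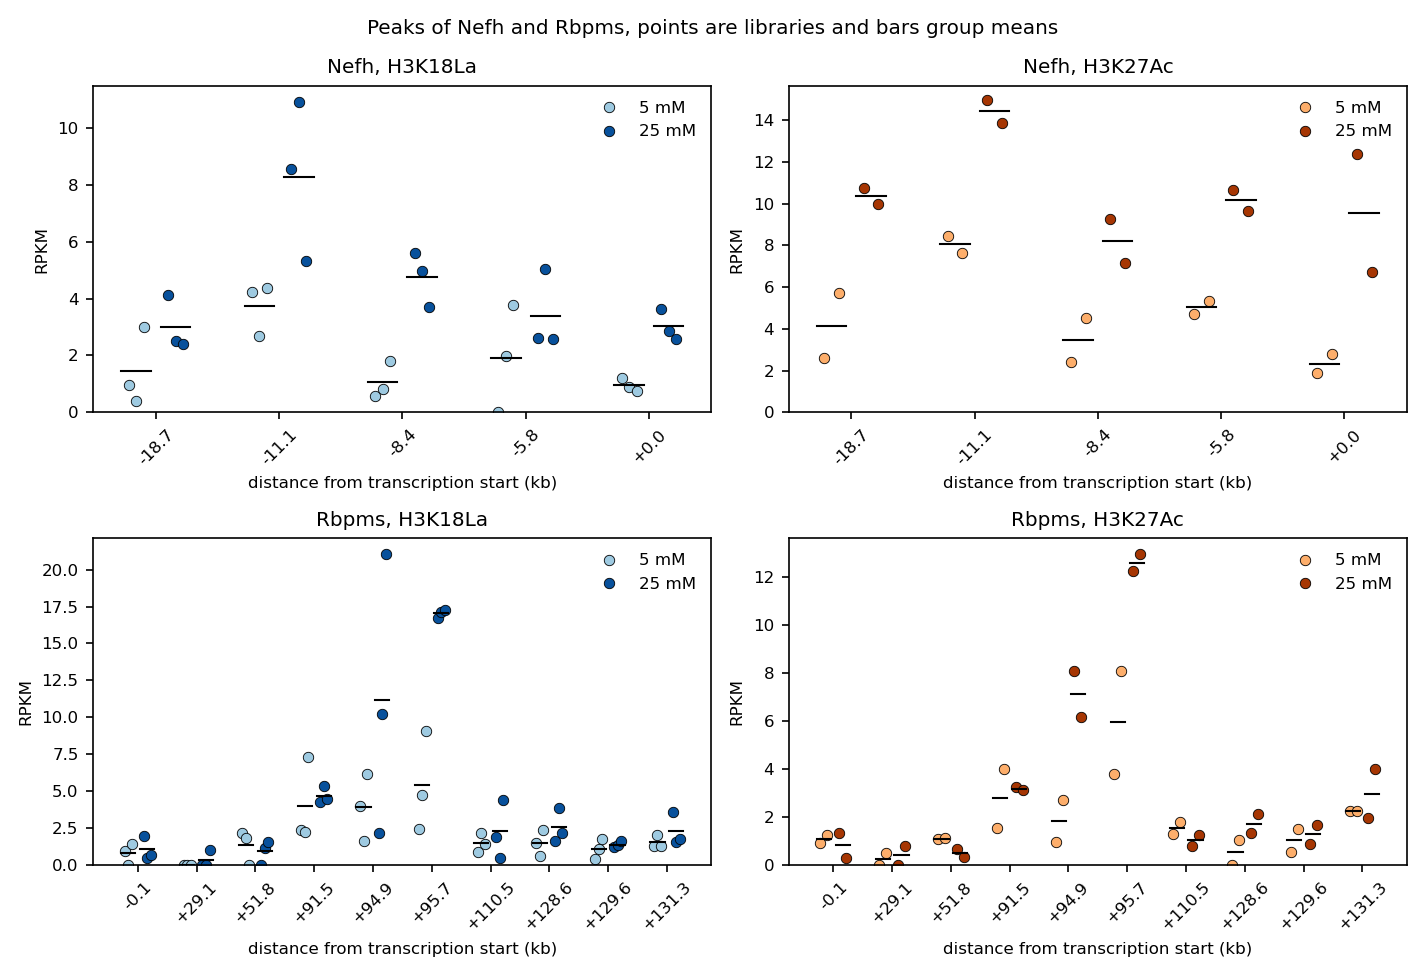
RPKM of each library (points) and group mean (bars) at the 5 peaks of Nefh and the 10 peaks of Rbpms, ordered by distance from the transcription start in kb, with 5 mM in pale and 25 mM in dark colours and each panel on its own axis from 0. All 25 mM points lie above the 5 mM points at Nefh for H3K27Ac, while at Rbpms the signal and the differences concentrate in a pair of adjacent intronic peaks.

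The medium subunit gene Nefm stood in contrast to Nefh, and the light subunit gene Nefl had no counted region and so no value. Nefm had 1 peak (chr14:68124130-68125045) over its start, in which H3K18La was 0, 0.632 and 0 RPKM at 5 mM and 0, 0.805 and 0.736 RPKM at 25 mM. H3K27Ac was 0 and 0.352 RPKM at 5 mM and 1.06 and 0.441 RPKM at 25 mM. Both 25 mM libraries exceeded both 5 mM libraries for H3K27Ac on at most 7 reads, and H3K18La overlapped. Nefl (chr14:68083863-68089095) lies next to Nefm and within a long Nefm transcript, and no peak was annotated to it. Levels per length therefore differed between Nefh and Nefm: over all peaks at 25 mM, H3K27Ac averaged 10.2 ± 1.99 RPKM for Nefh and 0.752 ± 0.439 RPKM for Nefm (SD, n = 2).

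Rbpms is an RNA-binding protein used to label all ganglion cells and also made by pericytes and smooth muscle. The gene had a weak promoter peak and intronic peaks of very unequal strength. For H3K18La these ran from percentile 2.91 of all peaks, 29117 bp after the start, to 99.0. At the promoter peak, 143 bp before the start, H3K18La was 0.913, 0 and 1.42 RPKM at 5 mM and 1.96, 0.474 and 0.650 RPKM at 25 mM. H3K27Ac was 0.891 and 1.24 RPKM at 5 mM and 1.34 and 0.260 RPKM at 25 mM. Groups overlapped in both marks. The intronic peak 95688 bp after the start (chr8:33833201-33834175, intron 5 of 7) stood at percentile 99.0 of all peaks for H3K18La and 88.3 for H3K27Ac.

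At this intronic peak H3K18La was 2.43, 4.75 and 9.06 RPKM at 5 mM and 16.7, 17.2 and 17.3 RPKM at 25 mM. It rose by 1.73 (SE 0.36, limma adjusted p = 0.00421), or 0.64 above the median of all peaks. H3K27Ac was 3.79 and 8.09 RPKM at 5 mM and 12.3 and 13.0 RPKM at 25 mM, without overlap, and its difference of 1.11 (SE 0.48) did not pass (limma adjusted p = 0.0573), though it did without 5 mM replicate 2. The 25 mM libraries were close together, and those at 5 mM spread over a wide range. The nearest annotated start of any Rbpms transcript was 9496 bp away, and no exon overlapped the peak.

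The neighbouring peak, 94878 bp after the start and 240 bp wide (chr8:33834746-33834985, intron 4 of 7), passed the test in H3K27Ac with all libraries, and the difference between the marks did not pass. H3K27Ac was 0.964 and 2.68 RPKM at 5 mM and 8.11 and 6.17 RPKM at 25 mM, and rose by 1.81 (SE 0.43, limma adjusted p = 0.000984). H3K18La was 3.95, 1.61 and 6.14 RPKM at 5 mM and 2.12, 10.2 and 21.1 RPKM at 25 mM, so that one 25 mM library lay below 2 of the 5 mM libraries (log2 difference 1.10, SE 0.66, limma adjusted p = 0.20). Without that library, 25 mM replicate 1, H3K18La passed (1.94, limma adjusted p = 0.0210), and without 25 mM replicate 3 the difference was 0.42 (limma adjusted p = 0.61). The other 8 Rbpms peaks passed in neither mark. Among them the peak at 131260 bp is 244 bp from an internal Rbpms start in GENCODE M21, and its differences were 0.41 (SE 0.44, limma adjusted p = 0.46) for H3K18La and 0.28 (SE 0.42, limma adjusted p = 0.61) for H3K27Ac.

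The remaining members are proteins of membrane and synapse. Thy1, a surface glycoprotein that is the classical marker for purifying ganglion cells, had 2 promoter peaks at 2 transcript starts. At the second (chr9:44045606-44046228) H3K27Ac was 0 and 1.03 RPKM at 5 mM and 1.79 and 2.38 RPKM at 25 mM, on 0 to 11 reads per library. The difference was 1.55 (SE 0.58, limma adjusted p = 0.0279). The peak reached the minimum only through the 25 mM libraries, with means of 0.517 and 2.08 RPKM, and with no minimum level it did not pass (limma adjusted p = 0.195). Without 5 mM replicate 1 the difference was 0.74 (limma adjusted p = 0.28), and without 5 mM replicate 2 it was 2.36. H3K18La there was 1.52, 0.310 and 0 RPKM at 5 mM and 0.817, 1.18 and 1.08 RPKM at 25 mM, with overlap. At the first, H3K27Ac was 0.216 and 1.05 RPKM at 5 mM and 1.43 and 1.26 RPKM at 25 mM, higher without overlap but under the minimum for a test.

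Sncg encodes gamma-synuclein, abundant in ganglion cell bodies and axons. Its 2 peaks lay downstream of the gene, 5787 and 5015 bp from its start, and 6463 and 5691 bp from the start of Mmrn2, an endothelial gene, so that their assignment rests on a small difference in distance. At the first, H3K18La was 2.44, 0.995 and 0 RPKM at 5 mM and 1.31, 0.634 and 1.74 RPKM at 25 mM, overlapping. H3K27Ac was 0.596 and 0.830 RPKM at 5 mM and 1.43 and 1.74 RPKM at 25 mM, higher in both libraries. The H3K27Ac difference was 0.78 (SE 0.55, limma adjusted p = 0.25). H3K18La was tested too and did not pass, and its difference is not given because no library held more than 3 reads.

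Slc17a6 encodes VGLUT2, the transporter that loads glutamate into the synaptic vesicles of ganglion cells. Its only peak (chr7:51627134-51627556) lay in intron 3 of 11, 5128 bp after the start. H3K18La was 0, 0.912 and 0 RPKM at 5 mM and 1.20, 1.16 and 1.59 RPKM at 25 mM, higher in every 25 mM library on 1 or 2 reads each. H3K27Ac was 0.547 and 0 RPKM at 5 mM and 0.986 and 0.318 RPKM at 25 mM, overlapping. The peak averaged under 1 RPKM in each mark and was not tested, and no fold is given because no library held more than 3 reads.

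Summed over all peaks of a gene, weighted by length, 3 members averaged at least 1 RPKM in each mark. For H3K18La, Nefh rose from 1.60 ± 0.548 to 4.41 ± 0.943 RPKM (SD, n = 3; log2 difference 1.24, SE 0.24, limma adjusted p = 0.00469). Rbpms rose from 2.17 ± 0.937 to 4.61 ± 0.478 RPKM (log2 difference 0.99, SE 0.25, limma adjusted p = 0.0141), and Sncg did not pass (0.57, SE 0.58, limma adjusted p = 0.40). Of 14877 genes tested, 57.0% rose and 0.0807% fell, with a median of 0.97. Nefh lay above that median and Rbpms close to it.

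For H3K27Ac at gene level, Thy1 had 0.591 ± 0.642 RPKM at 5 mM and 1.61 ± 0.0780 RPKM at 25 mM (SD, n = 2; log2 difference 1.09, SE 0.36, limma adjusted p = 0.00864). It too was tested only because of its 25 mM level, and with no minimum it did not pass (limma adjusted p = 0.125). Without 5 mM replicate 1 the Thy1 difference was 0.45 (limma adjusted p = 0.29), and without 5 mM replicate 2 it was 1.73. Nefh rose from 4.09 ± 0.916 to 10.2 ± 1.99 RPKM (1.22, SE 0.45, limma adjusted p = 0.0164), and Rbpms, at 2.17 ± 0.918 and 3.56 ± 0.403 RPKM, did not pass (0.65, SE 0.34, limma adjusted p = 0.0815). The Nefh call was lost without 5 mM replicate 1 or either 25 mM library, and Rbpms passed without 5 mM replicate 2 (1.01, limma adjusted p = 0.00647). Of 17544 genes tested, 62.2% rose and 0.279% fell, with a median of 1.01. The H3K27Ac calls, at peaks and genes alike, rest on 2 libraries per group. In both of these fits limma estimated infinite prior degrees of freedom and gave each feature the variance of the intensity trend, and with no minimum level 0 of 108253 peaks passed, members or not (31013 at an unadjusted p under 0.05).

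By level, Rbpms and Nefh came first in all 4 groups. Rbpms led for H3K18La and Nefh for H3K27Ac, but for H3K18La their ranges overlapped at both glucose levels. At 25 mM both stood clear of the third gene in each mark. Lower down, the order of neighbours mostly lay within the spread of the libraries: for H3K18La at 25 mM, Slc17a6, Sncg, Thy1, Pou4f2 and Isl2 ran from 1.32 down to 1.15 RPKM with overlapping ranges. Nefm and Pou4f1 closed that order at 0.514 and 0.375 RPKM.

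**Figure D4:**
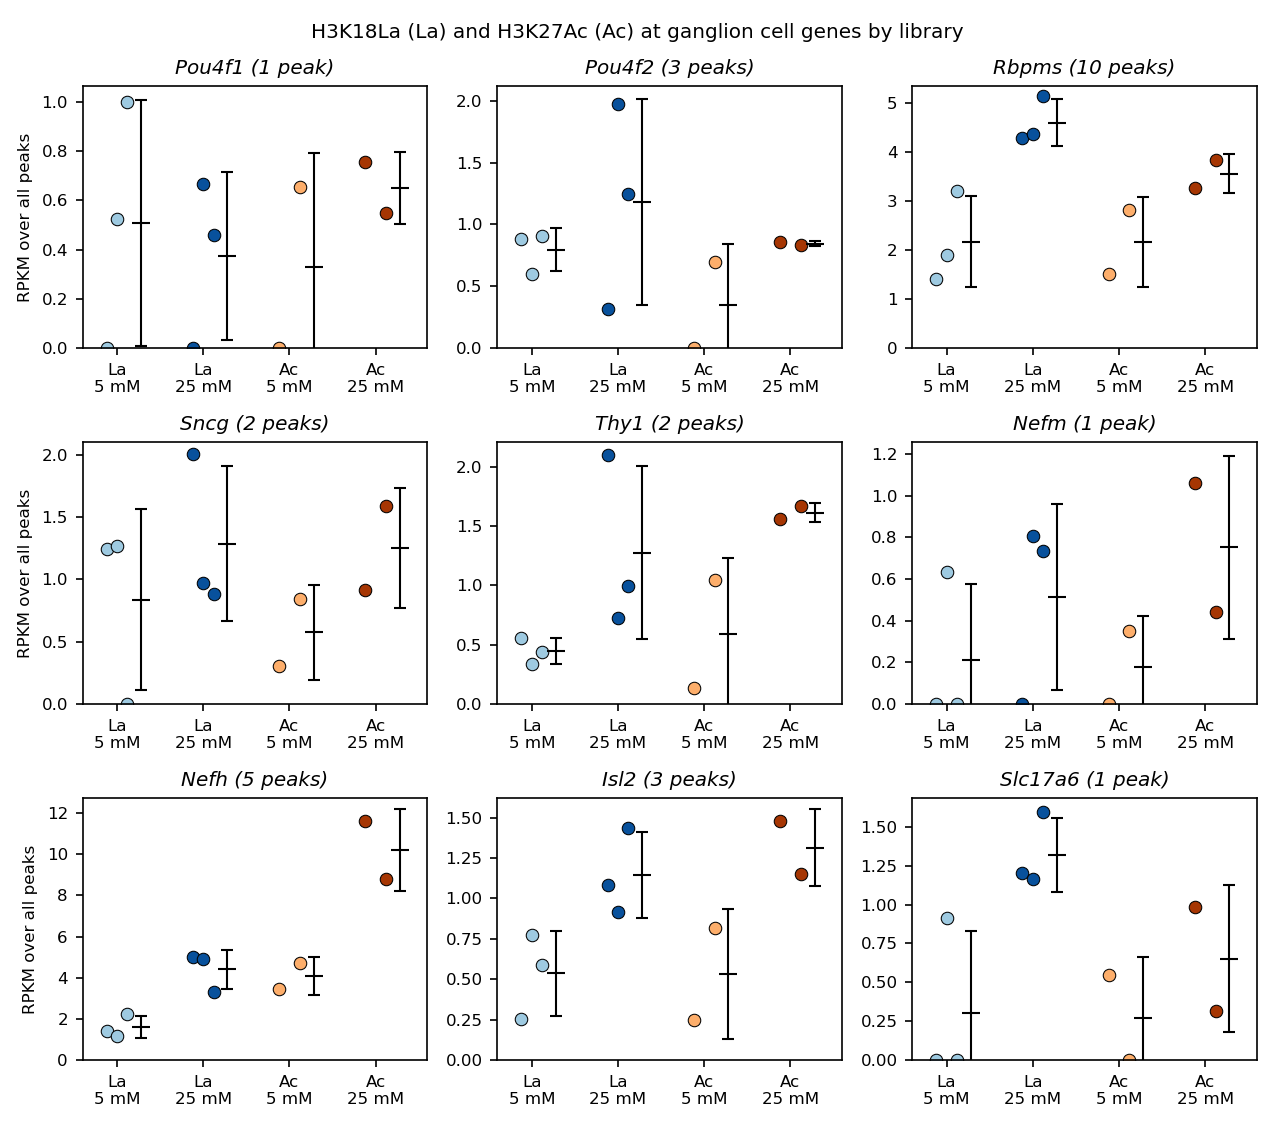
Length-weighted RPKM over all peaks of each of the 9 genes with a peak, by library (points), for H3K18La (La) and H3K27Ac (Ac) at 5 and 25 mM, with mean and SD beside the points; each panel has its own axis from 0, which cuts off SD bars that reach below it. At 25 mM Nefh reaches 10.2 RPKM for H3K27Ac on average, while the 25 mM means of Pou4f1 and Nefm stay under 1 RPKM in both marks.

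Whether glucose acted differently on the marks was tested as a glucose by mark interaction over all 10 libraries. None of 16 member peaks and none of 3 member genes passed with limma, against 0% of 72467 peaks and 0% of 17359 genes. At an unadjusted p under 0.05 stood 3650 peaks and 1239 genes overall and 0 members, and voom on the recovered reads called 0 as well. At the Rbpms peak 95688 bp after the start the interaction was -0.62 (SE 0.63), and at the Nefh promoter 0.50 (SE 0.59). These errors are as large as the estimates, so a sizeable difference between the marks was not detectable here.

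Other genes of ganglion cells and of axon injury were taken as lists for comparison. Of 30 further ganglion cell genes, 29 had a peak and 20 a promoter peak. For H3K18La 16 were tested, of which 11 rose and 0 fell, and for H3K27Ac 15 were tested, of which 9 rose and 0 fell. Of all genes tested, 57.0% and 62.2% rose. Opn4, the melanopsin of light-sensitive ganglion cells, rose by 2.01 (SE 0.12, limma adjusted p = 0.000200) in H3K18La, and Ebf3, a helix-loop-helix factor, by 1.71 (SE 0.11, limma adjusted p = 0.000200). The tubulin regulator Stmn2 gave 0.39 and Atoh7, which makes progenitors competent to become ganglion cells, 0.49. Neither passed in H3K18La, and Atoh7 passed in H3K27Ac (0.78, SE 0.34, limma adjusted p = 0.0396). Over all 29 genes with a peak the median difference was 0.60 for H3K18La and 0.50 for H3K27Ac. The 9 members had 0.69 and 0.80, and all genes with a peak 0.69 and 0.70. These lists were described by counts and medians and not tested as sets.

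Of 26 genes of the axon injury response, 23 had a peak, and 17 of 22 tested rose for H3K18La and 15 of 22 for H3K27Ac, with none lower, where 57.0% and 62.2% of all genes tested rose. Their median differences over the 23 genes were 1.18 and 1.35. Ddit3, the stress factor CHOP that promotes ganglion cell death, rose by 1.91 (SE 0.50, limma adjusted p = 0.00146) in H3K27Ac. In H3K18La its difference was 1.86 (SE 0.39, limma adjusted p = 0.00609), from a 5 mM mean of 0.457 RPKM that was itself under the minimum. Klf6, a factor of axon regrowth, rose by 1.79 (SE 0.30, limma adjusted p = 0.00231) and 1.63 (SE 0.50, limma adjusted p = 0.00532). Klf4 and Csrp1 passed in neither mark, at 0.23 and 0.07 for H3K18La. These genes are active in other retinal cells as well.

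Other cell types bound the members on both sides. All 11 rod genes with a peak rose in both marks, with medians of 2.12 for H3K18La and 1.84 for H3K27Ac. Amacrine genes, which share the inner retina with ganglion cells, had medians of 0.22 and 0.43 over 10 genes with a peak, and 1 of 4 tested rose for H3K18La. Vascular genes had medians of 0.35 and 0.12, with 0 of 6 higher for H3K18La, 1 of 6 higher and 1 lower for H3K27Ac, beside the same 57.0% and 62.2% of all genes. The summed level of the 9 members was 5.77 to 8.37 RPKM at 5 mM and 15.8 to 16.5 RPKM at 25 mM for H3K18La, and that of all genes 23896 to 24519 and 52411 to 62641 RPKM. The 8 vascular genes, some of whose cells also make Rbpms, summed to 6.17 to 8.57 RPKM at 5 mM and 8.59 to 9.53 RPKM at 25 mM. The part of other cell types in the values at shared genes was not tested.

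**Figure D5:**
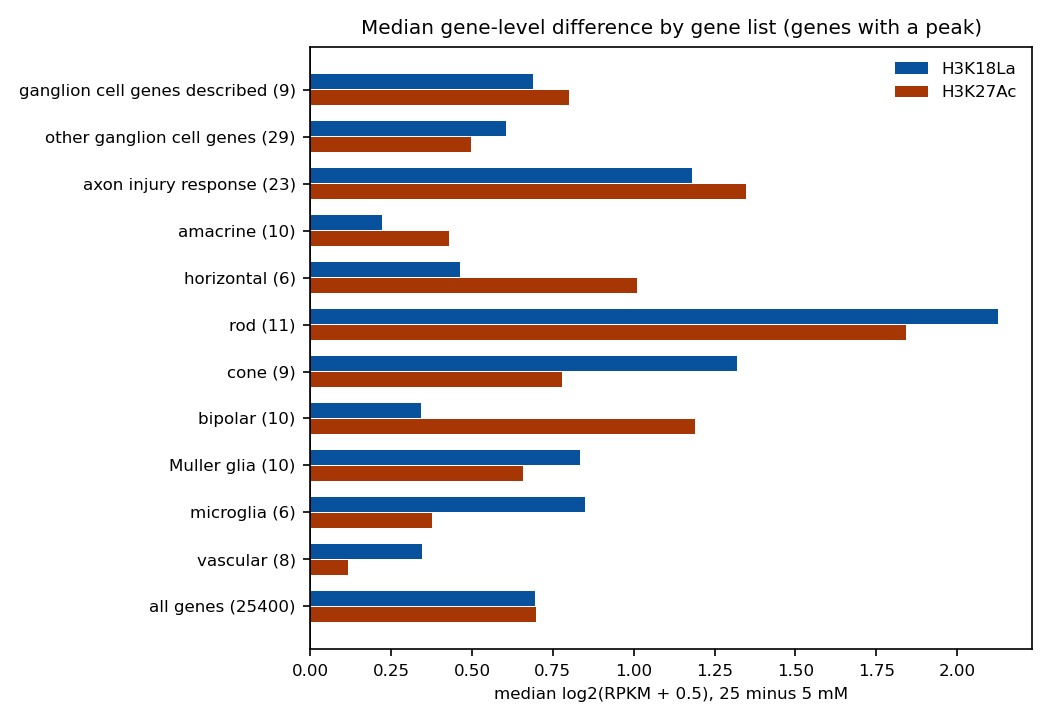
Median gene-level difference in log2(RPKM + 0.5), 25 minus 5 mM, over the genes with a peak (number in brackets) of each list, for H3K18La and H3K27Ac. The 9 ganglion cell genes described lie at 0.69 and 0.80, near the 0.69 and 0.70 of all genes, with rod genes highest at 2.12 and 1.84.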

How the data were processed

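The authors aligned CUT&Tag reads to GRCm38 with nf-core/cutandrun, called H3K18La peaks with MACS, removed blacklisted regions, merged the peaks of developing retinas of 3 postnatal ages and annotated peaks with ChIPseeker 1.34.1 (Ensembl annotation). They counted reads with csaw and deposited RPKM values, reads scaled to the length of the peak and to a library denominator, for 108253 peaks. That this merged set was also the one counted in the explants is read from the number of peaks. The methods name it for the comparison of ages, and for the explants a merged set of H3K18La and H3K27Ac peaks. Deposited columns of the authors' own comparison (fold changes and p-values for H3K18La, for which edgeR 3.40.2 is named) were not used. Every RPKM value was a whole multiple of the value of 1 read (100%, within 0.01 reads), so reads and denominators were recovered. Whether normalization factors enter the denominators is not given in the sources used here. No difference of a single peak or gene is given where both groups held at most 3 reads in every library, but such features stay in the counts and medians.

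Differences were fitted on log2(RPKM + 0.5) by limma (version 3.58.1 under R 4.3.3; lmFit, then eBayes with a trend), for features with a mean of at least 1 RPKM, adjusted over all features tested. A gene's value was the length-weighted mean over its peaks. The code was tested on simulated data in which few features changed and the genome as a whole did not shift. There the peak test for H3K18La called none of the smallest changes, which were doublings, and missed many larger ones. In the data 37.3% of all tested peaks rose for H3K18La. The adjustment was thus less strict there, and the simulated rates do not carry over. A member that did not pass may still have changed. Alternatives, given in the closing section, changed the scaling, pseudocount, minimum, replicate block and test (voom on the recovered reads) or left out a library. Positions in genes came from GENCODE M21. Tables and plots were made in Python 3.11.15 (pandas 2.3.3, matplotlib 3.10.9).

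The members, the gene lists and the tests, including the minimum level, were chosen with earlier results of these data known. Named features were all 10 members, each with its gene value, its strongest promoter peak (or the peak nearest to its start) and its strongest peak. To these were added, for each mark, the 3 largest rises and falls past the threshold among the other member peaks, and for each further list the 2 largest and 2 smallest H3K18La differences. Peaks of Isl2, Rbpms and Pou4f2 outside this rule were described after their values were seen, and no test supports them beyond those printed.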

Additional observations from a re-analysis of the deposited data

How the results depend on the processing

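The counts of members past the threshold depended on scaling, the minimum level and single libraries. Scaled to reads in peaks, 0 of all peaks and genes passed with limma in either mark, members included. With libraries centred on the median of all features, 0 member peaks and genes passed, beside 1.59% and 1.58% of all peaks and 9.31% and 1.53% of all genes. With libraries centred on the weakest 10% of features, chosen after seeing the data, 2 peaks passed for H3K18La and 2 for H3K27Ac (15.5% and 7.55% of all), and 0 genes (23.1% and 12.7% of all). At a threshold of 0.01, 2 peaks passed in each mark (18.9% and 13.6% of all) and 1 gene in each (35.1% and 32.5% of all). With no minimum level 0 H3K27Ac peaks and 0 genes passed with limma, over all features too, with 10 member peaks at an unadjusted p under 0.05; at a minimum mean of 2 RPKM 1 of 2 H3K27Ac genes tested passed (79.7% of all), and with promoter peaks alone 1 of 1 H3K18La gene (40.1% of all). Voom called 6 H3K18La and 4 H3K27Ac peaks (45.2% and 35.1% of all). Leaving out 1 library gave 2 to 6 H3K18La peaks, 0 to 11 H3K27Ac peaks, 2 H3K18La genes and 0 to 3 H3K27Ac genes, while 24.6% to 36.0% of all H3K18La peaks and 0.0142% to 53.0% of all H3K27Ac peaks passed, and 45.1% to 50.9% and 0.696% to 73.0% of all genes. In H3K18La, the Rbpms peak 95688 bp from the start, the Nefh peak 8371 bp upstream and both genes passed in 6 of 6 such fits; in H3K27Ac the same Nefh peak passed in 1 of 4. The interaction called 0 members in every setting run. The edgeR alternative that was planned was run once on the recovered reads and then left out, because the deposited unit is RPKM. Voom is the only test on the recovered reads given here. The causes of these changes were not tested.

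Same-numbered libraries of the glucose levels were not treated as paired in the main fits. In H3K18La their deviations correlated by 0.0076 to 0.031, and those of differently numbered libraries by -0.036 to 0.020. In H3K27Ac the values were 0.021 and -0.021, equal and opposite because each group had 2 libraries. Many peaks held few reads, so low correlations cannot exclude a pairing. With the replicate block, 2 H3K27Ac peaks and 1 gene passed (10.9% and 6.09% of all), and the H3K18La counts stayed at 4 and 2 (36.5% and 54.3% of all).

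Some differences changed sign. Scaled to reads in peaks, H3K18La gave -0.19 at the Rbpms peak 94878 bp from the start, -0.33 at Pou4f2 (15877 bp), -0.82 at the Isl2 3′ end, -0.31 and -0.054 at Nefh (11118 and 18717 bp), and -0.25 and -0.26 for the Rbpms and Sncg genes. H3K27Ac gave -0.087 at Rbpms (95688 bp), -0.42 at Nefh (11118 bp), -0.071 at Sncg and -0.42 for the Rbpms gene. Centred on the median, the values were -0.51 (Pou4f2), -0.73 (Isl2) and -0.27 (Sncg gene) for H3K18La and -0.38 for the Rbpms gene in H3K27Ac. Centred on the weakest features, they were -0.035 and -0.25 at the Pou4f2 and Isl2 peaks and -0.080 for the Rbpms gene in H3K27Ac. Voom gave -0.092 at Isl2. When 1 library was left out, H3K18La ranged from -0.22 to 1.21 at Pou4f2, -0.043 to 0.46 at Isl2 and -0.029 to 0.88 for the Sncg gene. Of these, the H3K18La peak at Nefh (11118 bp) and the Rbpms gene in H3K18La had passed the test. Depth is low at many members: 14 and 11 of 28 peaks held at most 3 reads in every H3K18La library at 5 and 25 mM, and 12 and 5 in H3K27Ac.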

Other observations

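Genes of the other retinal cell types were measured alongside. The counts below stand beside 57.0% of 14877 genes that rose for H3K18La and 62.2% of 17544 for H3K27Ac, and none was tested as a set. In H3K18La Arr3, Gnat1, Aqp4 and Trpm1 had 5 mM means of 0.529, 0.698, 0.449 and 0.916 RPKM and so could be tested only through their 25 mM level, and Cldn5 in H3K27Ac only through its 5 mM level (0.813 RPKM at 25 mM). Of 9 cone genes tested for H3K18La, 6 rose, among them the cone arrestin Arr3 by 1.5 (SE 0.28, limma adjusted p = 0.00388) and the opsin Opn1mw by 1.52 (SE 0.21, limma adjusted p = 0.00114). The short-wavelength opsin Opn1sw and Gngt2 gave 0.41 and 0.52 and did not pass. For H3K27Ac 5 of 8 cone genes rose. Of the rod genes, the transcription factor Nrl rose by 2.60 (SE 0.33, limma adjusted p = 0.000703) and the transducin Gnat1 by 2.59 (SE 0.43, limma adjusted p = 0.00227) in H3K18La, and the smallest rises were those of the phosphodiesterase subunits Pde6a and Pde6b, by 1.56 and 1.71.

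Of the bipolar genes, 3 of 4 tested rose for H3K18La and 7 of 8 for H3K27Ac, with Otx2 at 1.61 and the kinase Prkca at 1.45 the largest in H3K18La, and Trpm1 (0.84) and Bhlhe23 (0.71) the smallest, of which Bhlhe23 did not pass. For Muller glia 5 of 9 and 4 of 9 rose. Carbonic anhydrase Car2 rose by 2.07 (SE 0.21, limma adjusted p = 0.000307) and the water channel Aqp4 by 1.17, while the filament gene Vim (0.05) and Dkk3 (0.38) did not pass in H3K18La. Horizontal cell genes had 2 of 3 and 3 of 4 higher. Among amacrine genes the glycine transporter Slc6a9 rose by 1.52 (SE 0.15, limma adjusted p = 0.000320) in H3K18La, and Th (0.54), Prox1 (0.48) and Slc32a1 (-0.02) did not pass.

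Microglia genes had 4 of 5 and 2 of 5 higher. Trem2 rose by 1.71 (SE 0.26, limma adjusted p = 0.00141) and the complement genes C1qa and C1qb by 1.06 and 0.75 in H3K18La, while the receptor Csf1r gave -0.28 and did not pass. Of the vascular genes, Cspg4 (0.80), Pecam1 (0.57), Flt1 (0.34) and Cldn5 (-0.73) did not pass in H3K18La. The one vascular gene that fell in H3K27Ac was Cldn5, a tight junction protein of endothelium, by 0.87 on the log2 scale (SE 0.34, limma adjusted p = 0.0242).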
